A study of Mus musculus with 6 samples.

Results

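The narrow target peaks were chosen by their width, the end minus the start of the region, as those of at most 30 nt in the list of AGO2 target peaks deposited for mouse cortex. They number 517 of the 2197 peaks, and the other 1680 are called wider peaks here. The mice were VGLUT2-Cre;Spy3-AGO2 animals at postnatal day 14, in which a Cre driver of the vesicular glutamate transporter gene switches on a conditional AGO2 allele with a Spy3 tag. All 3 groups of 2 libraries share this tissue, age and genotype: miRNA and target libraries of RNA held by AGO2, and input libraries of whole lysate. In them the labels name pyramidal neurons as the cell type. AGO2-bound RNA was captured on a SpyCatcher3 resin and the gel was cut between 70 and 150 kDa before RNA was extracted. The labels do not say whether the libraries came from separate animals. The peak list is 1 list for the series, with no column for a single library, so no peak has a replicate value, and values of single target and input libraries were not analysed here.

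Argonaute 2 holds a microRNA (miRNA), a small RNA whose seed, bases 2 to 8, pairs with a messenger RNA, and brings about repression of that message. In sequencing of RNA bound to Argonaute, a peak is a stretch of the genome where reads of target fragments pile up. Target sites of miRNAs are known to lie mainly in the 3′ ends of messages, on the strand of the message, so the strand and the place of a peak in its gene are informative.

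The widths of the narrow peaks fell into a hump of their own. Their most frequent width was 24 nt, with 108 peaks, and 448 of them (86.7%) were 22 to 27 nt wide. Only 9 peaks were 30 nt wide, the lowest count of any width from 24 to 50 nt, and above the limit the most frequent width up to 60 nt was 45 nt, with 40 peaks. The narrow peaks made up 23.5% of all peaks but 9.14% of the 139956 bases in peaks. At the limit itself, 22 peaks were 29 or 30 nt wide and 27 were 31 or 32 nt wide. Of those just inside, 5 lay in no gene span and 5 of 13 with a known gene strand were antisense; just outside, these counts were 2 and 1 of 15. The width chose these peaks, so the widths are a description.

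**Figure D1:**
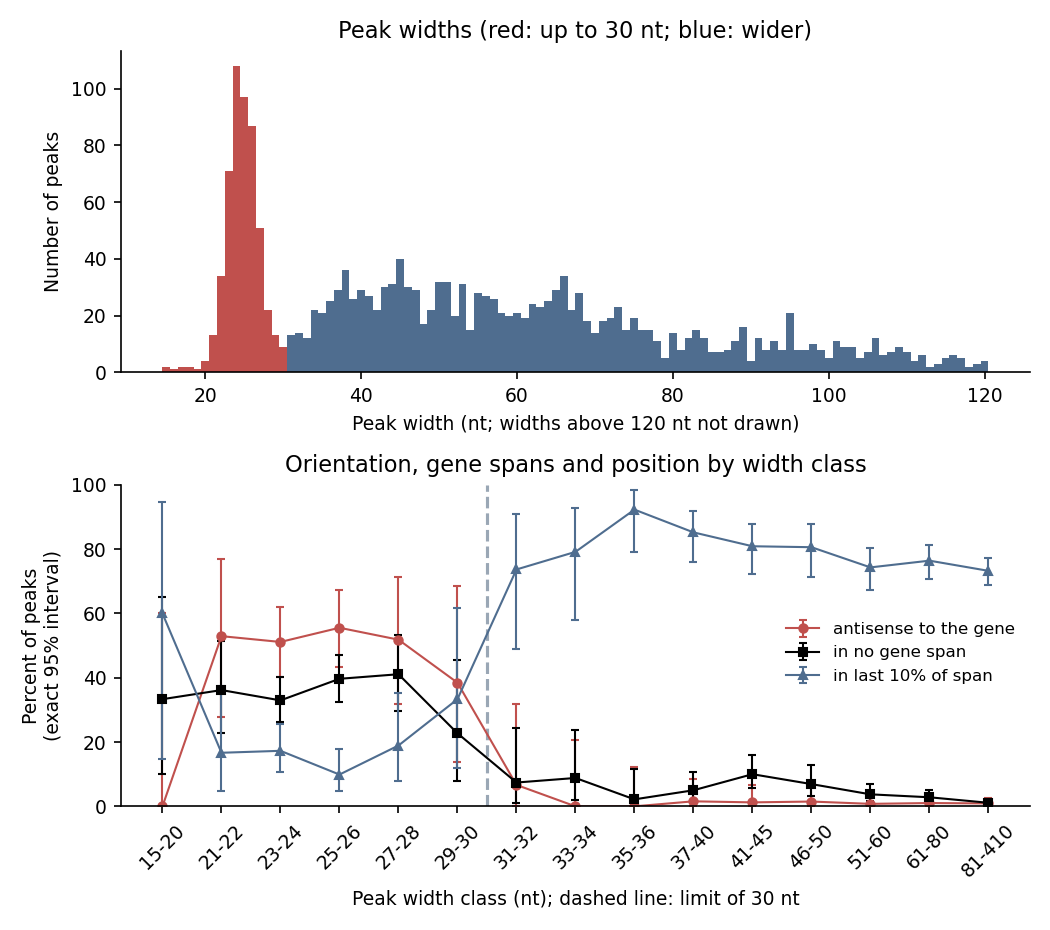
Top, number of peaks at each width in nt, up to 120 nt, with peaks of at most 30 nt in red and wider peaks in blue. Bottom, share of peaks antisense to their gene, in no gene span and in the last 10% of the gene span, by width class, with exact 95% intervals; 51.1% of peaks of 23 to 24 nt and 6.67% of those of 31 to 32 nt were antisense.

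Sequence could be read for few of them. The table of RefSeq promoter windows on GRCm38.p6, the build called mm10 elsewhere, covers 250 bases before and 50 after a gene start, and 6 narrow and 7 wider peaks touched such a window. Of these, 5 narrow and 6 wider peaks had at least 15 readable bases. The narrow sequences are shown because 4 of the 5 shared a run of 8 or more bases with the 5′ RNA adapter of the library protocol, on the strand of the peak. The adapter comes first, with capitals on the stretch that the shared runs cover together. In the peaks, capitals mark the longest exact run shared with it.
5′ RNA adapter, written with T: gttcagaGTTCTACAGTCCGACGATC
Elf5, chr2:103424098-103424117, plus strand, the readable part of a peak that ends at 103424121: ttatTTCTACAGTCCGctgg
Olfr780, chr10:129321559-129321583, plus strand: ttgtGTTCTACAGTCCaagtgtccc
Syp, chrX:7638611-7638629, plus strand, the readable part of a peak that ends at 7638634: ctgtTCCGACGATCgcgca
Deaf1, chr7:141327762-141327787, minus strand: ctgctcgGTTCTACActcgggccatc
Kdm2b, chr5:122900531-122900560, plus strand: gcgcgcggcgcggggactggggctgcgtgg

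The longest shared run was 12 bases in Elf5, an epithelial transcription factor gene. It was also 12 in the peak labelled Olfr780, which lay in no gene span, its midpoint 54 nt from that olfactory receptor gene. It was 10 in Syp, the gene of the synaptic vesicle protein synaptophysin, and 8 in Deaf1, a transcription factor gene. The Kdm2b peak, in the gene of a histone demethylase and on the opposite strand, shared no more than 3 bases in a row. Together the runs covered bases 8 to 26 of the 26-base adapter, its 3′ part, and the runs of Elf5 and Olfr780 differed by 1 base in where they began. Of 394212 windows of 25 bases that tile all RefSeq promoter windows, 0.360% held a run of at least 8 adapter bases, 0.0170% one of at least 10 and 0.00254% one of at least 12. In the 6 readable wider peaks the longest run was 2 to 5 bases. The best run in the 5 narrow peaks was 6 bases against the adapter's other strand and 6 against the 3′ RNA adapter. These are 5 of the 517 narrow peaks, all near a start of the RefSeq promoter windows, and for the rest the sequence was not read here. Such a start can lie inside the gene span. The Elf5 peak lay at 30.9% of its span and the Deaf1 peak at 26.6%. The Kdm2b peak lay 88724 nt from the 5′ end of its gene span. What part the adapter plays in the narrow peaks as a class was not tested.

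The 2 wider sequences closest to the limit in width are given for comparison, in lower case because no run reached 8 bases.
Gm34076, chr19:23917554-23917584, plus strand: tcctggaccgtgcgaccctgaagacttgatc
2900060B14Rik, chr1:118459225-118459260, minus strand: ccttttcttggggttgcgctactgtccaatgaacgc

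The same 5 narrow sequences were searched for the 6-base sites of 5 AGO2-bound miRNAs, the most abundant of those in the RefSeq miRNA table, each site pairing with bases 2 to 7 of the miRNA. The sites were ACTGTG for miR-128-3p, TCAGGG for miR-125b-5p, CCAAAG for miR-9-5p, ATGGAG for miR-136-5p and ACTTGA for miR-26a-5p, on both strands, and no 2 of them were the same. One miRNA of higher count than the last of these, miR-124-3p, is not in that table and was not searched. The miRNAs held 13.2% ± 0.305, 6.43% ± 0.332, 6.42% ± 0.273, 2.76% ± 0.00377 and 2.53% ± 0.0423 of the miRNA counts (SD, n = 2). None of these letters occurred in the 5 sequences. Of the 25-base promoter windows, 0.818% to 1.57% held a given site on either strand. With sites this rare, 5 sequences are too few for their absence to be informative. No narrow peak and no wider peak overlapped any of the 1005 miRNA hairpins of the RefSeq table. The widths were close to but not the same as the lengths of the counted miRNAs, taken from reference sequences and not measured on reads. These are unlike measures, since a width is the extent of a region and not the length of an RNA. The limit of 30 nt also set in part how close they are. MiRNAs without a matched sequence did not enter, among them miR-124-3p with 5.57% of the miRNA counts. Weighted by count, the miRNAs averaged 22.01 nt ± 0.0133 (SD, n = 2), over 1679 of the 1978 listed miRNAs whose sequence was matched, and 3.68% ± 0.194 of their counts came from miRNAs of 24 to 30 nt. Of the narrow peaks, 74.9% were 24 to 30 nt wide, and the mean width was 24.7 ± 2.17 nt (SD over peaks).

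Gene class was a first measure that the width rule did not use. Protein-coding gene spans held 284 of the 517 narrow peaks (54.9%, exact 95% interval 50.5 to 59.3) and 1341 of the 1680 wider ones (79.8%, 77.8 to 81.7). Among peaks in a gene span of any kind this order was not seen. Of these, 284 of 329 narrow peaks (86.3%) and 82.9% of wider ones were in a protein-coding span, a difference of 3.44 points (95% interval -1.05 to 7.25), or 5.17 points (0.336 to 9.45) with each gene counted once. The 9 narrow and 94 wider mitochondrial peaks entered here as a class of their own, never as protein-coding. That rule lowered the wider share more than the narrow one, so both differences rest in part on it. No annotated gene span held 188 narrow peaks (36.4%, 32.2 to 40.7), against 62 wider ones (3.69%, 2.84 to 4.71), a difference of 32.7 percentage points (95% interval 28.5 to 37.0). So 188 of the 250 peaks of the whole list outside gene spans were narrow. As a scale for these shares, gene spans of any kind covered 45.8% of the length of the nuclear chromosomes, and protein-coding spans 37.9%, while 55.9% of the nuclear narrow peaks lay in a protein-coding span. The intervals treat peaks as independent, which peaks of the same gene are not.

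Classes of noncoding RNA differed too. Small noncoding RNA genes, among them those of snoRNAs and tRNAs, held 5 narrow peaks (0.967%) and 102 wider ones (6.07%), a difference of -5.10 points (95% interval -6.47 to -3.45). The named ones include Rny3, a Y RNA gene, with a peak of 26 nt, the glycine tRNA gene n-TGgcc7 with 27 nt, and a snoRNA gene inside Zbed3 with 21 nt. The mitochondrial genome held 9 narrow peaks (1.74%) and 94 wider ones (5.60%), a difference of -3.85 points (-5.31 to -2.02). All 9 of the narrow ones had a peak of the same strand within 31 nt and lay in mt-Rnr1, mt-Rnr2, ND1, COX1 and ND5. For lncRNA genes no difference was resolved, with 28 narrow peaks (5.42%) against 75 wider ones (4.46%) and an interval of -1.02 to 3.42 points. Malat1, an abundant nuclear lncRNA, had 2 narrow peaks of 25 nt, and Rian, an imprinted lncRNA, had 1 of 23 nt, each within 34 nt of another peak; Gm45968 had 2, of 22 and 26 nt, lying 6311 nt apart.

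**Figure D2:**
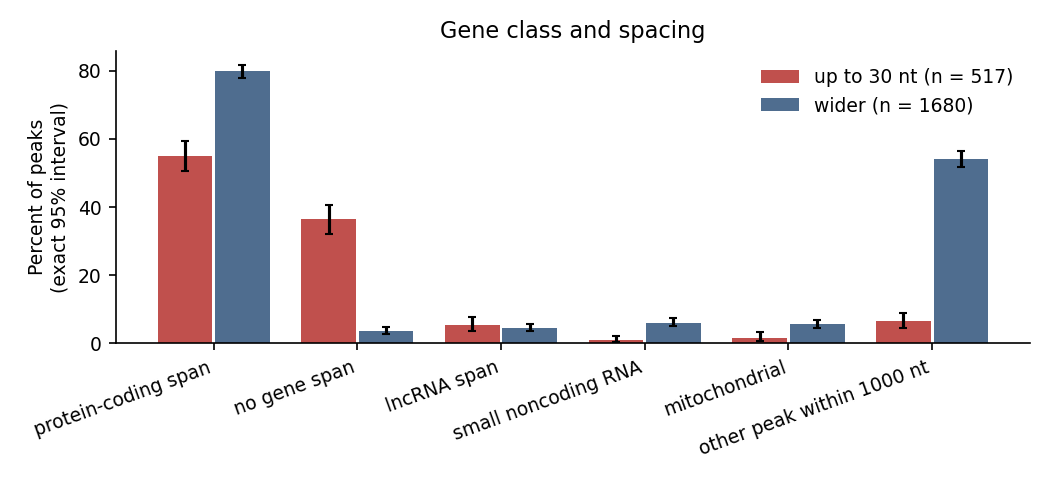
Share of narrow (red) and wider (blue) peaks in each gene class, and share with another peak within 1000 nt on the same strand, in percent with exact 95% intervals. The bars for no gene span (36.4% against 3.69%) and for a near neighbour (6.58% against 54.0%) lie farthest apart.

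Strand relative to the gene differed as well. The strand of a gene was taken from the promoter table, which lists it for 79.9% of 21887 protein-coding genes. The gaps were uneven. On chromosome 18, no peak outside gene spans had a protein-coding gene of listed strand before it on its own strand. The antisense shares thus leave out all or nearly all of that chromosome, which held 17 narrow and 37 wider peaks. Among peaks in exactly 1 protein-coding span with a listed strand, 113 of 221 narrow peaks were antisense to the gene (51.1%, exact 95% interval 44.3 to 57.9). Of the wider peaks, 10 of 925 were (1.08%, 0.520 to 1.98). The difference was 50.1 percentage points (95% interval 43.4 to 56.6), and with each gene counted once the shares were 51.7% and 1.67%. An even split between the strands lies inside the interval of the narrow peaks. In lncRNA spans, 11 of 23 narrow peaks were antisense (47.8%, 26.8 to 69.4), against 5 of 72 wider ones (6.94%, 2.29 to 15.5). Relative to the genome rather than to genes, no difference in strand was resolved. On the plus strand lay 55.5% of narrow and 54.7% of wider peaks, with an interval of the difference from -4.11 to 5.67 points.

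The change with width was abrupt. From 21 to 28 nt, the antisense share of each class of 2 nt lay between 51.1% and 55.6%. It was 38.5% at 29 to 30 nt and 6.67% at 31 to 32 nt, and from 33 nt up it did not exceed 1.56%. Only 12 narrow peaks were 15 to 20 nt wide. None of the 4 of these with a known gene strand was antisense and 3 of 5 in 1 protein-coding span lay in its last 10%, counts too small to set them apart, while 4 of the 12 lay in no gene span (33.3%), a share within the range of the other narrow classes.

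Narrow peaks were spread along gene spans, where wider ones gathered at the 3′ end. Position was read along the strand of the peak for 282 narrow and 1288 wider peaks in exactly 1 protein-coding span. For a peak antisense to its gene, the last 10% of the span is thus the 5′ end of the gene. In the last 10% of the span lay 47 narrow peaks (16.7%, exact 95% interval 12.5 to 21.5) and 989 wider ones (76.8%, 74.4 to 79.1). That is a difference of -60.1 points (95% interval -64.6 to -54.8). The first 10% held 24 narrow peaks (8.51%) and 15 wider ones (1.16%). Each of the 8 parts of 10% in between held 5.67% to 12.1% of the narrow peaks. The median narrow peak lay at 58.8% of the span and 36610 nt from its end, and the median wider peak at 97.9% and 1123 nt. Within 1 kb of the span end were 9.57% of narrow and 46.7% of wider peaks. Among sense peaks alone, 22 of 108 narrow peaks lay in the last 10% (20.4%), against 744 of 915 wider ones (81.3%), and of the antisense narrow peaks 16 of 113 did (14.2%). Spans include introns, and whether a narrow peak is exonic or intronic was not determined, since no transcript models were used here.

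**Figure D3:**
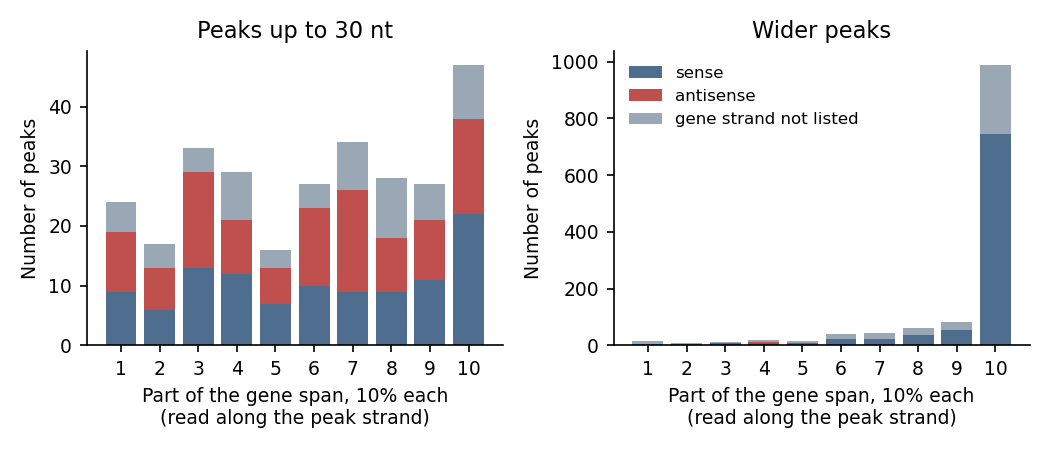
Number of narrow (left) and wider (right) peaks in each of 10 equal parts of the gene span, read along the peak strand, split into sense, antisense and gene strand not listed; the vertical scales differ. Narrow peaks fill all 10 parts in both orientations, with 47 of 282 in the last, and wider peaks are concentrated in the last part, with 989 of 1288; of the 925 wider peaks with a listed gene strand, 915 are sense.

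Outside gene spans, narrow peaks lay just past a gene end less often than wider ones. The median distance from a narrow peak to the nearest gene span was 15504 nt (quartiles 4355 and 51125), and for wider peaks it was 10833 nt. Whether a peak lay within 10 kb past the end of a protein-coding gene on the same strand could not be scored for 4 narrow and 5 wider peaks, where the strand of a gene ending there is not listed. Of the other 184 narrow peaks, 10 did (5.43%, exact 95% interval 2.64 to 9.77). Of the other 57 wider ones, 13 did (22.8%, 12.7 to 35.8), a difference of -17.4 points (-30.01 to -7.44).

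Spacing showed a further contrast. Another peak lay within 1000 nt on the same strand for 34 narrow peaks (6.58%, exact 95% interval 4.60 to 9.07) and 908 wider ones (54.0%, 51.6 to 56.5). The median gap to the nearest peak of the same strand was 1095620 nt for narrow peaks and 634 nt for wider ones. The shortest gap in either group was 21 nt, so peaks closer than that may have been joined into 1 wider peak, and spacing is not fully independent of width. No narrow peak overlapped a peak on the opposite strand. Neighbouring narrow peaks on a strand lay a median of 6037 kb apart, and 8 of 476 such pairs lay within 1000 nt. The 5 closest pairs were 2 in Atp1b1, with gaps of 21 and 218 nt, and 3 in the mitochondrial genome, with gaps of 22, 267 and 397 nt.

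A small part of the narrow peaks lay near other peaks, and these were sense and nearer to gene ends. Another peak lay within 10000 nt on the strand of 39 of them, and 478 stood alone. Of the 15 with a neighbour and a known gene strand, 0 were antisense, which allows a share of up to 21.8% by the exact interval, against 113 of 206 lone ones (54.9%, 47.8 to 61.8). In the last 10% of the span lay 14 of 21 with a neighbour (66.7%, 43.0 to 85.4) and 33 of 261 lone peaks (12.6%, 8.87 to 17.3). Outside gene spans were 2 of 39 (5.13%) and 186 of 478 (38.9%). This split by neighbours was chosen after the values were seen. All 5 sequences printed above belong to lone peaks.

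**Figure D4:**
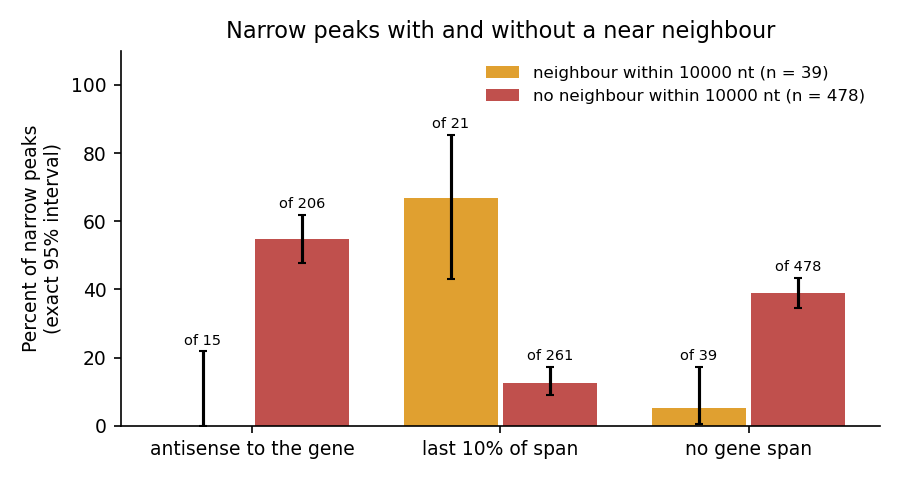
Narrow peaks with another peak within 10000 nt on the strand (orange, n = 39) and without (red, n = 478), as shares antisense to the gene, in the last 10% of the span and in no gene span, with exact 95% intervals and denominators above the bars. None of 15 with a neighbour was antisense, and 54.9% of 206 without one were.

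Narrow peaks were spread over the chromosomes nearly by length. Every chromosome from 1 to 19 and X held some, from 11 on chromosome 19 to 39 on chromosome 2, and the Y chromosome held 0 peaks of any width. Per 100 Mb, measured to the end of the last gene, the number ran from 13.5 on chromosome X to 25.99 on chromosome 15, a ratio of 1.93. Wider peaks ran from 28.1 on chromosome 14 to 138.7 on chromosome 19, a ratio of 4.94. Across the 20 chromosomes the number of narrow peaks correlated with length at Pearson r = 0.784 and Spearman rho = 0.715, and the number of wider peaks at 0.333 and 0.254. These are descriptions of 1 peak list. Narrow peaks were thus 11.5% of the peaks of chromosome 19 and 35.7% of those of chromosome 16, and 8.74% of those of the mitochondrial genome.

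**Figure D5:**
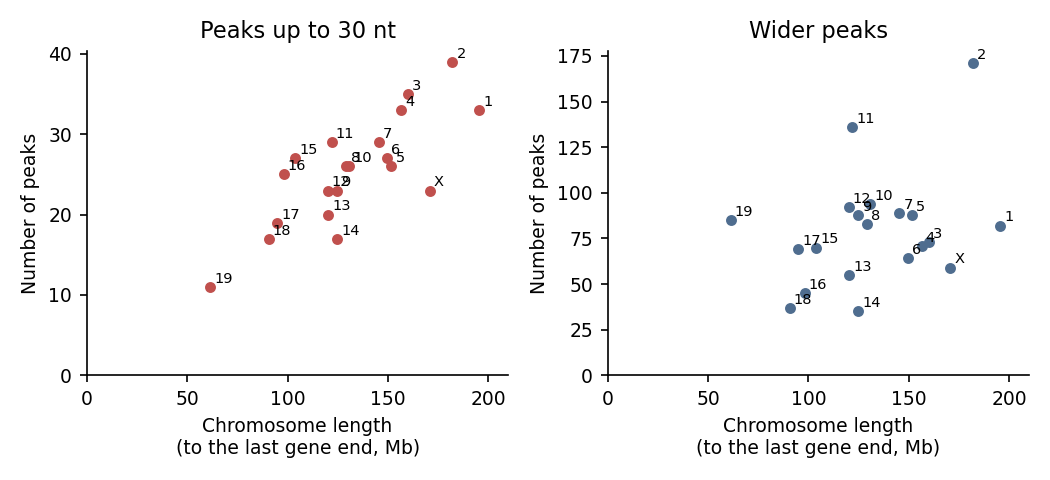
Number of narrow (left) and wider (right) peaks on each of 20 nuclear chromosomes against chromosome length in Mb, measured to the end of its last gene; the vertical scales differ. Narrow peaks rise with length (r = 0.784), and the wider peaks of chromosomes 2, 11 and 19 lie above those of chromosomes of like length.

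At the level of genes, 274 protein-coding genes held a narrow peak, 1.25% of the 21887 in the table, and 710 held a wider one, 3.24%. The peaks of 231 genes were all narrow, 43 genes held both kinds and 667 wider ones only. Of the 231, 229 rested on a single narrow peak. The exceptions were Egfem1, an extracellular matrix gene, with 2 antisense peaks of 23 and 25 nt, and St6galnac3, a sialyltransferase gene, with 2 sense peaks of 24 and 25 nt; within each gene the peaks lay over 100 kb apart. Genes with narrow peaks only had a median span of 97.0 kb (quartiles 38.2 and 238.3), and the 43 with both kinds 109.0 kb (25.5 and 542.3). The median was 47.2 kb for genes with wider peaks only and 17.2 kb for all protein-coding genes. These medians count each gene once and were not weighted by span length. In genes with narrow peaks only, 100 of 183 were antisense (54.6%, exact 95% interval 47.1 to 62.003) and 28 of 231 lay in the last 10% of the span (12.1%). Of these 28, read along the peak strand, 9 were known to be sense and 13 antisense, the latter at the 5′ end of the gene. In genes that also held a wider peak, 13 of 38 narrow peaks were antisense (34.2%, 19.6 to 51.4) and 19 of 51 lay in the last 10% (37.3%, 24.1 to 51.9). Of these 19, 13 were known to be sense and 3 antisense.

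The genes with the most narrow peaks were of both sorts. Slc1a2, a glutamate transporter gene of astrocytes, had 3 among its 45 peaks, of 18, 23 and 28 nt, all sense and 117 to 7990 nt from the end of the span. Atp1b1, the beta subunit of the sodium pump, had 3 among 13, of 23, 24 and 29 nt, all sense and 842 to 1131 nt from the end. All 6 had another peak within 38 nt. Vamp2, a vesicle SNARE gene, had 2 among 7, each within 192 nt of another peak. In contrast, the 2 narrow peaks of Ank2, which encodes a scaffold of the membrane skeleton, were both antisense and were 24 and 27 nt wide. They lay 469939 nt apart with no other peak nearer on their strand, and the nearest peak on either strand was 43642 nt from the first and 426206 nt from the second. The 2 of Tenm4, an adhesion protein gene of neurons, were both antisense and 26 nt wide, and those of Camta1, a transcription activator gene, were 1 antisense and 1 sense. Syp held 1 of each sort, both on the strand of the gene. Its peak of 18 nt lay 1237 nt from the end and 23 nt from another peak. Its peak of 24 nt, the one with 10 adapter bases, lay at the gene start, 13303 nt from the nearest peak on either strand.

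The narrowest peaks were mostly close to others. Of the 8 under 20 nt, those of 17 nt in Vamp2 and in Tmsb4x, the gene of an actin-binding peptide, of 18 nt in Slc1a2 and Syp, and of 15 and 16 nt in ND5 and mt-Rnr2 had another peak within 28 nt. So had a peak of 19 nt outside gene spans, and the other peak of 15 nt stood alone. At the upper end, the peaks of 29 or 30 nt in Atp1b1, Camk2n1, an inhibitor of CaM kinase, Lrrc4b, a synaptic adhesion gene, Tubb2a, a tubulin gene, and Itm2b, a membrane protein gene, lay within 59 nt of another. Those in Ptpn3, Kdm2b, Tlr6, Ppp5c, Nudt7, Phip, Pcdh15, Col23a1 and Cldn34c1 lay over 100 kb from any other peak on either strand, and of these Ptpn3, Kdm2b, Nudt7, Col23a1 and Cldn34c1 were antisense.

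Lists of neuronal genes, 281 genes in all with the cell type markers, were then read against the shares of all protein-coding genes, 1.25% with a narrow and 3.24% with a wider peak. No account was taken of span length or expression, so a share above these is not a trait of a list by itself. Presynaptic genes had a narrow peak in 6 of 30 and a wider one in 15. Among them were Syp, Vamp2, Nrxn3 (24 nt), a neurexin gene, with an antisense peak, and Nsf (27 nt) and Ppfia2 (25 nt), genes of vesicle release with sense peaks. Postsynaptic genes had a narrow peak in 2 of 30 and a wider one in 17. The narrow ones were 28 nt in Dlg4, the PSD-95 scaffold gene, on its sense strand 170 nt from another peak, and 25 nt in the NMDA receptor gene Grin2a. Cytoskeletal genes had a narrow peak in 3 of 30 and a wider one in 20. Beside Ank2 these were Map1b (26 nt) and Tubb2a (29 nt), which code for a microtubule-associated protein and a tubulin, both sense; the Tubb2a peak lay 21 nt from the end of the span. Among ion channels and pumps the counts were 4 and 12 of 24, with narrow peaks among others in Atp1b1 and the calcium channel subunit genes Cacna2d1 (24 nt, sense) and Cacnb4 (26 nt, antisense).

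In the lists of regulators and adhesion genes the share with a narrow peak ran from 0% to 16.7%. RNA-binding proteins had a narrow peak in 2 of 25 and a wider one in 10; both narrow ones, in Msi2 (27 nt) and the splicing factor gene Rbfox1 (25 nt), were antisense. Transcription and chromatin genes had a narrow peak in 3 of 25 and a wider one in 7. The narrow ones lay in Bcl11a and the DNA methyltransferase gene Dnmt3a (24 nt each) and in Foxp1 (22 nt), all sense, and were the only peaks of these genes. Of PI3K, mTOR and MAPK genes 1 of 23 had one, Tsc1 (23 nt), an inhibitor of mTOR signalling, and 12 had a wider peak. Adhesion and guidance genes had one in 4 of 24 and a wider one in 10. These were Tenm4, Ntm, Opcml and Plxna4, all of them long genes, and the 4 peaks of the first 3, each of known strand, were antisense. Genes of the miRNA pathway had 0 narrow peaks in 17 and a wider peak in 1.

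The marker lists of cell types, with 8 to 12 genes each, are too short to set apart from the 1.25% of all protein-coding genes, and narrow peaks do not test the labelled cell type. Glutamatergic markers had a narrow peak in 0 of 12 and a wider one in 4, GABAergic markers in 0 and 1 of 10, and oligodendrocyte markers in 0 and 3 of 10. Astrocyte markers had a narrow peak in 1 of 10, Slc1a2, and wider ones in 2. Microglial markers had one in 1 of 8, Siglech, a lone peak of 25 nt on the sense strand at 33.5% of the span, and wider ones in 0, and endothelial and mural markers had none of either kind in 8.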

How the data were processed

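Peaks were used as deposited, 1 list on mm10, per the submitters' processing notes; the score that the authors gave is 0 for all 2197 peaks. STAR 2.5.2a, Bowtie2 2.4.2, cutadapt 2.10, deepTools 3.1.3, DESeq2 1.36.0 and UMI-tools are named there without roles. For the peak caller, and for whether target libraries were pooled or set against input, nothing is given in the sources used here. Counts of miRNAs, deposited by the authors as whole numbers per mature miRNA without normalization, summed to 66854 and 75658 per library; their file name says that duplicates were kept.

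A peak was credited to the RefSeq gene spans (GRCm38.p6) that held its midpoint, with small noncoding RNA genes first. Shares have exact (Clopper-Pearson) and differences Newcombe 95% intervals (scipy 1.17.1, statsmodels 0.14.6), which cover counting error only; no p-value was computed, since peaks are not replicate samples. Gene strand and sequence came from RefSeq promoter windows. Annotation and intervals were tested on simulated data. Members and gene lists were chosen with earlier results of these data known; named genes follow a rule on peak number, width and list, applied in part, with some genes not reported here, and other names were chosen after their values were seen. The orientation, neighbour, gene-end and adapter measures were added after the data were seen. All 281 listed genes matched.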

Additional observations from a re-analysis of the deposited data

How the results depend on the processing

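Every alternative that compared narrow with wider peaks kept the direction of the difference for gene spans, position, spacing and orientation. The limits on width of 20, 25, 35 and 40 nt made 0.546%, 15.2%, 27.3% and 33.9% of peaks narrow. Of these limits, only 25 and 35 nt were used to compare narrow with wider peaks. With a limit of 35 nt, 28.1% of narrow peaks lay in the last 10% of the span, 12.9% had a peak within 1000 nt and 43.0% were antisense; with 25 nt, 60% lay on the plus strand, a difference from wider peaks of 6.03 points (95% interval 0.238 to 11.6), which was -0.186 points with 35 nt. The last 5% and 20% of the span held 9.22% and 26.2% of narrow peaks. Requiring at least 2 peaks left 2 genes with narrow peaks only. Without narrow peaks that have a near neighbour, 12.6% lay in the last 10% and 54.9% were antisense. Leaving out 1 miRNA library gave a mean miRNA length of 22.005 to 22.023 nt. No miRNA gene held a narrow peak, so the planned miRNA shares were not run. No paired analysis was possible because the peak list has no values per library. Without read counts, the depth behind a peak is unknown.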
